A study of Homo sapiens with 9 samples.

Results

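SYCP2L, SMOC1 and TECTA are 3 genes whose introns each held a single narrow cross-link site in an eCLIP experiment on the mitochondrial enzyme MDH2. They were chosen on the counts themselves, for an intron site that was high in the MDH2 IP and in the control IgG IP and low in the input. Everything said of the levels at these sites is therefore a description without a test. The genes held 3964 of the 15767969 windows with a count, with 1351 windows in SYCP2L, 2528 in SMOC1 and 85 in TECTA, out of 35309 identifiers in all.

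The libraries came from UV-cross-linked Huh7 cells, a human hepatoma line, and the study asked which RNAs were bound by MDH2. There were 3 groups of 3 replicate libraries. The MDH2 IP was made with an antibody against MDH2, and the IgG IP with isotype-matched IgG from the same kind of lysate. The size-matched input (SMI) is lysate set aside before the IP and cut from the same part of the gel. PCR ran for 14 cycles in both IPs but for 9 in the SMI. The replicate libraries were pooled after gel purification and multiplexed for sequencing. Window counts per library summed to between 5899998 and 9482501 in the MDH2 IP, between 8311118 and 9788565 in the SMI and between 1631267 and 2942816 in the IgG IP, so the IgG IP values rest on the fewest counts.

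Malate dehydrogenase 2 converts malate to oxaloacetate in the tricarboxylic acid cycle. In eCLIP, reverse transcription of an immunopurified RNA tends to stop beside the base that was cross-linked to protein, so the base next to the start of a read marks the cross-link site. A protein that is spread over an RNA gives sites over many positions, and the IgG IP and the SMI show what is recovered without the specific antibody. SYCP2L encodes a protein related to SYCP2 of the synaptonemal complex, which holds homologous chromosomes together in meiosis. SMOC1 is a secreted calcium-binding protein of the SPARC family, found in basement membranes. TECTA encodes alpha-tectorin, a main glycoprotein of the tectorial membrane of the cochlea.

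All 3 sites lay inside introns on the plus strand, and the genes themselves are transcribed from that strand. The deposited table names windows by gene, feature and number but gives no coordinates. The windows were 50 nt wide with a step of 20 nt, and their numbering was rebuilt from the exons of GENCODE v44 on GRCh38. The numbering was checked on plus-strand genes with the same identifier version in both annotations and at least 3 features. Genes with a listed feature that v44 lacked were left out of the check. Of the 2929 genes kept, 99.5% had all their listed features within the rebuilt numbering. This share does not cover genes whose features differed between the annotations. A site that fills some of the overlapping windows and not the next ones can be placed to within 10 nt. In SYCP2L the stretch was chr6:10887599-10887608 in intron 1, 464 nt into an intron of 4377 nt. It was placed through the window numbering of an overlapping gene, ENSG00000272162. In SMOC1 it was chr14:69928808-69928817 in intron 4, 49031 nt into an intron of 72359 nt. In TECTA the numbering allowed 6 placements, which together span chr11:121153171-121153280 in intron 14, a range that starts 91 nt into an intron of 4760 nt. A shift of the whole numbering by a base cannot be told from the counts.

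The sequence around each site is shown because the counts are confined to so short a stretch. The genome sequence is GRCh38, plus strand. The capitals mark the stretch in which the cross-link sites lie (for SYCP2L nearly all of them, for TECTA the whole range of placements). The printed regions are chr6:10887549-10887658 for SYCP2L, chr14:69928758-69928867 for SMOC1 and chr11:121153161-121153310 for TECTA.
SYCP2L: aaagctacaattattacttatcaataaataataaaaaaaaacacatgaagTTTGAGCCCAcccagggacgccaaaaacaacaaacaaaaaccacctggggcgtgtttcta
SMOC1: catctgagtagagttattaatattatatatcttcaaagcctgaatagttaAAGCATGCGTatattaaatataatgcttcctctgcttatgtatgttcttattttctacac
TECTA: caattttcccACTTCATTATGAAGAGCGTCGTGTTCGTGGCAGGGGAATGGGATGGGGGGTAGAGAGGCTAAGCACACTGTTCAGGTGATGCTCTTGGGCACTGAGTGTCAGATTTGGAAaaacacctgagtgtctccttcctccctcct

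The printed regions differed in base composition, with a GC content of 35.5% in SYCP2L, 28.2% in SMOC1 and 51.3% in TECTA. The authors kept reads with up to 10 alignments, so copies elsewhere in the genome could add to a count. The 30 bases that follow each position of the stretches occurred once, on both strands of the 25 chromosomes searched, at all 10 positions in SYCP2L, all 10 in SMOC1 and all 110 in TECTA. Shorter or mismatched alignments were not searched. The TECTA range also holds a short run of letters that matches part of the library adapters given in the study's methods, and its part in the TECTA counts was not tested. No gene of the annotation overlapped a site on the opposite strand. On the same strand, the SYCP2L site also lay in an intron of ENSG00000272162, a protein-coding gene that starts upstream of SYCP2L and overlaps it.

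The SYCP2L site was the highest intron window of the whole table in both IPs. Its peak window, number 38 of the gene, held 2748, 4948 and 3291 counts in MDH2 IP replicates 1, 2 and 3. It held 118, 205 and 83 counts in the SMI and 3808, 1208 and 811 in the IgG IP. The IP libraries of both kinds lay far above all SMI libraries, and the SMI libraries were not empty. In CPM, the counts divided by the library size in units of 1e6 with the TMM factors of the windows, the window stood at 386 ± 148 in the MDH2 IP, 15.6 ± 6.3 in the SMI and 1027 ± 436 in the IgG IP (mean ± SD, n = 3). The mean of the MDH2 IP was 24.5-fold that of the SMI, and the mean of the IgG IP 65.2-fold. Every IgG IP library stood above every MDH2 IP library on this scale, with a log2 ratio of MDH2 IP over IgG IP of -1.41. That ratio was -0.65 with total counts as library sizes, so its size rests on the scaling while its direction held under the 4 other scalings computed.

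The same counts were entered under several windows. Windows 38 and 39 of SYCP2L had equal counts in all 9 libraries, and window 37 had at most 6 fewer in a library. Under ENSG00000272162, windows 6989 and 6990 of intron 3 had the same 9 counts as the SYCP2L peak window, so the reads of this site cannot be assigned to one of the genes. ENSG00000272162 runs on to chr6:10930423, inside SYCP2L. Counts of SYCP2L outside the site but before that position cannot be assigned to one gene either.

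The SMOC1 site was absent from the input. Its windows 3732 and 3733 held the same counts, with 895, 724 and 863 in the MDH2 IP, 336, 55 and 61 in the IgG IP, and 0 in each SMI library. The MDH2 IP and the IgG IP both stood apart from the SMI, and IgG IP replicate 1 had the most of its group. The level was 86.2 ± 21.0 CPM in the MDH2 IP and 74.7 ± 50.6 CPM in the IgG IP (mean ± SD, n = 3). Set against 3 counts per SMI library, the MDH2 IP was at least 245-fold higher and the IgG IP at least 212-fold higher. The IgG IP value rested most on replicate 1: with 0.1 CPM added to each mean, its log2 ratio over SMI was 9.55 with all libraries and 8.84 without that one. Between the IPs the log2 ratio was 0.21 with overlapping libraries, and no order can be read from it. It was 0.92 without IgG IP replicate 1, -0.08 without IgG IP replicate 2, -0.02 without IgG IP replicate 3 and -0.01 without MDH2 IP replicate 3. With total counts as library sizes it was 0.92, and with the TMM factors of the gene sums 0.74.

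The TECTA site was nearly absent from the input. Its windows 2597 and 2598 held 683, 736 and 738 counts in the MDH2 IP and 270, 122 and 168 in the IgG IP, against 0, 0 and 5 in the SMI. SMI replicate 3 alone had counts there. The level was 75.5 ± 19.4 CPM in the MDH2 IP and 112 ± 22 CPM in the IgG IP, against 0.187 ± 0.324 CPM in the SMI (mean ± SD, n = 3). With 0.1 CPM added to each mean, the log2 ratio over SMI was 8.04 for the MDH2 IP and 8.61 for the IgG IP. Both rested on the 5 counts of SMI replicate 3, without which they were 9.56 and 10.13. Between the IPs it was -0.57 with overlapping libraries, and it turned to 0.21 with total counts as library sizes.

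Since every window is 50 nt wide, the levels of the 3 sites can be set side by side. The order was SYCP2L, SMOC1, TECTA in the MDH2 IP and SYCP2L, TECTA, SMOC1 in the IgG IP. The SMOC1 and TECTA libraries overlapped in both groups, so their order does not go beyond the spread. By mean CPM among the 13203197 intron windows with a count, the SYCP2L peak window ranked 1 in both IPs, the SMOC1 window ranked 9 in the MDH2 IP and 21 in the IgG IP, and the TECTA window ranked 11 and 9. In the SMI the SYCP2L window still ranked 98. These are ranks of windows and not of separate sites. Overlapping windows of a site, and copies of the SYCP2L counts under ENSG00000272162, were each counted.

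**Figure D1:**
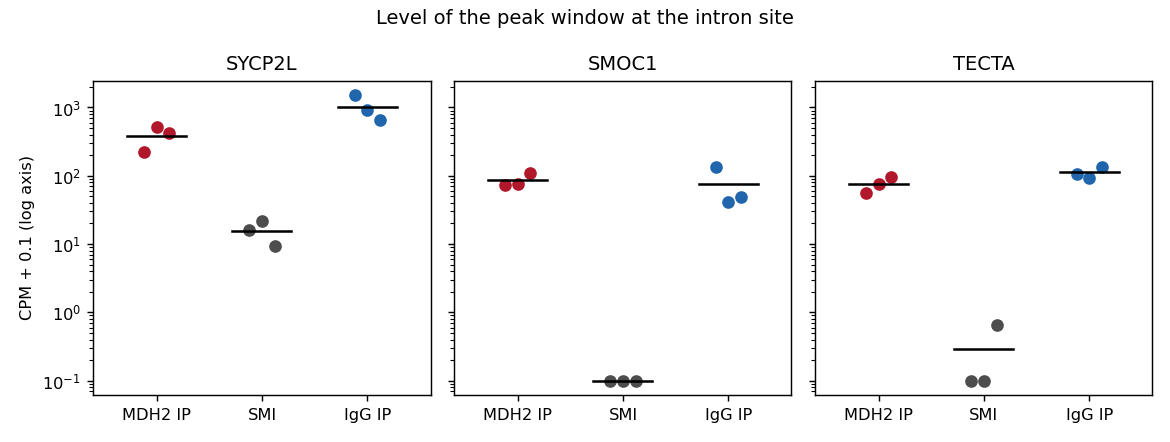
Level of the peak window of each site in CPM + 0.1 on a log axis, with 1 point per library and a line at the group mean. Points at 0.1 are libraries with 0 counts: all 3 SMI libraries at SMOC1 and 2 at TECTA, while the SYCP2L site had 83 to 205 counts in the SMI.

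The windows on either side of the sites were nearly empty. Of the 5 windows before and the 5 after each site, none had a count in SYCP2L or TECTA. In SMOC1, 3 windows after the site were listed, with at most 1 count in a library. The nearest listed window before the SYCP2L site lay 140 nt away by window starts and held 1 count, in SMI replicate 2, and the nearest one after it lay 640 nt away. In TECTA the nearest listed windows were in other introns, intron 10 before the site and intron 15 after it. No count of the TECTA intron lay outside its site, while the rest of the SYCP2L intron held 3, 0 and 0 window counts in the MDH2 IP, 4, 12 and 5 in the SMI and 0 in each IgG IP library.

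The SMOC1 intron differed in this respect. Outside the site it held 174, 131 and 86 window counts in the MDH2 IP, 223, 251 and 174 in the SMI, and 124, 76 and 66 in the IgG IP. These counts were spread over 1034 windows, of which 860 had a count in 1 library only, and no window held more than 3 in a library.

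**Figure D2:**
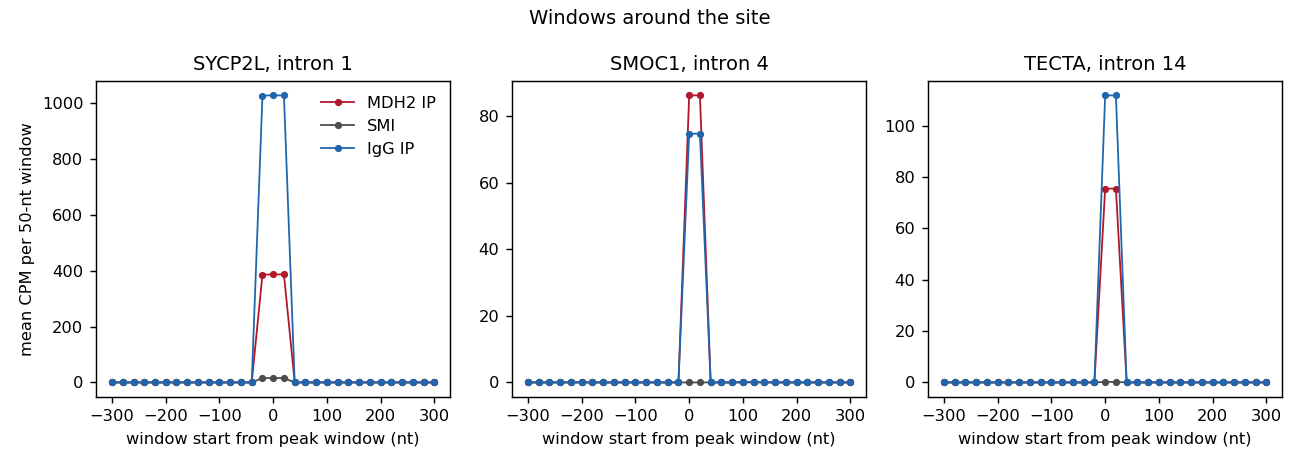
Mean CPM per 50-nt window before and after the peak window, by the distance in nt between window starts, for the 3 groups. Each site stands over 2 or 3 adjacent windows with equal or nearly equal values, and the windows beside it are at or near 0.

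In the IPs, nearly all counts of SYCP2L and TECTA came from the site. The site held 95.9% to 99.1% of the SYCP2L window counts in the MDH2 IP libraries and 97.4% to 99.2% in the IgG IP, against 47.2% to 55.2% in the SMI. For TECTA the share was 98.3% to 100.0% in the MDH2 IP and 97.6% to 99.1% in the IgG IP. In the SMI it was 66.7% in replicate 3, from 10 of 15 window counts, and 0 in the others, where the gene had 9 and 16 window counts. SMOC1 had a lower share at its site, 75.3% to 86.1% in the MDH2 IP and 37.8% to 68.6% in the IgG IP. The SMI had 0 of 527 to 673 SMOC1 window counts at the site, so a small share there could have been missed. Overlapping windows count the same cross-link up to 3 times, so no interval is given for these shares.

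**Figure D3:**
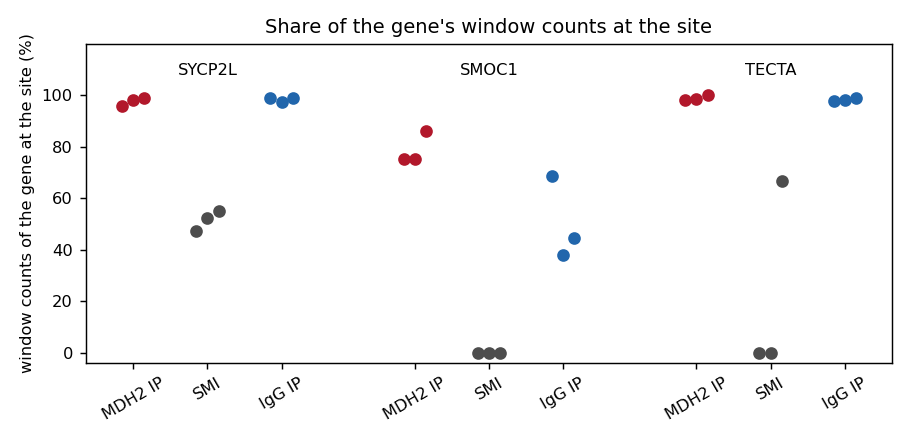
Share of each gene's window counts that lay at its site, in percent, with 1 point per library. SYCP2L and TECTA lie above 95% in all IP libraries, SMOC1 lies between 37.8% and 86.1%, and the SMI libraries are lower for SYCP2L and SMOC1 and split for TECTA.

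Outside the sites the counts were thin and scattered. SYCP2L had 1348 further windows with a count, of which 948 had a count in 1 library only, and none held more than 4 in a library. SMOC1 had 2526 further windows with at most 6 in a library, and TECTA 83 with at most 2. These windows formed 377 separate runs in SYCP2L, 731 in SMOC1 and 33 in TECTA. Introns held 85.4% of the counts outside the site in SYCP2L, 83.1% in SMOC1 and 85.7% in TECTA.

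Named by the most counts over the 9 libraries, the leading windows outside the sites were weak as well. In SYCP2L, window 2086 of intron 19 had 12 counts in all, with 4, 3 and 2 in the SMI, 2, 1 and 0 in the MDH2 IP and 0 in the IgG IP. In SMOC1 all 5 leading windows lay in exon 15, the highest-numbered exon of the gene in the table, and window 8825 had 6, 3 and 3 counts in the MDH2 IP, 0, 3 and 2 in the SMI and 2, 1 and 0 in the IgG IP. That exon held 364 of the 635 exon counts of SMOC1. The leading TECTA windows had 2 counts each.

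No window outside the sites had at least 10 counts in 3 of the libraries compared, so none could be tested, and with a minimum of 5 counts none passed either. Over the whole table, 3.77% of 51108 windows were called enriched in the MDH2 IP over SMI by edgeR's quasi-likelihood test (adjusted p up to 0.05, log2 fold change 1 or more). The share was 6.31% of 26669 windows for the IgG IP over SMI and 0.148% of 30427 windows for the MDH2 IP over the IgG IP. The 7 windows of the sites passed the count filter in each comparison, and no test is given for them.

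The rest of each gene, summed without the site, was the measure that the choice of genes did not use. SMOC1 was higher in the IgG IP than in both other groups there. The other differences tested did not pass in the main fit, which leaves out the replicate number. Called genes made up 16.4% (higher) and 17.9% (lower) of 17057 genes for the MDH2 IP over SMI, 16.4% and 11.4% of 15708 for the IgG IP over SMI, and 4.64% and 7.77% of 15492 for the MDH2 IP over the IgG IP, in edgeR's quasi-likelihood test at an adjusted p of at most 0.05. These splits moved with the scaling. With the TMM factors of the windows in place of those of the gene sums, 1038 genes were higher and 5970 lower for the MDH2 IP over SMI against 2799 and 3059, 2749 and 1204 for the IgG IP over SMI against 2578 and 1786, and 81 and 4895 for the MDH2 IP over the IgG IP against 719 and 1204. With total counts they were 2205 and 2776 for the IgG IP over SMI, and 1359 and 838 for the MDH2 IP over the IgG IP. The median log2 fold change of all genes under the window factors was -0.44, 0.01 and -0.59 in the 3 comparisons, against -0.01, -0.08 and 0.02.

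SMOC1 without its site had 588, 475 and 279 window counts in the MDH2 IP, 574, 673 and 527 in the SMI and 307, 181 and 152 in the IgG IP. Scaled by the gene sums this was 56.2 ± 10.4 CPM in the MDH2 IP, 64.1 ± 9.5 CPM in the SMI and 109 ± 4 CPM in the IgG IP (mean ± SD, n = 3). Every IgG IP library stood above all 6 other libraries, while MDH2 IP and SMI overlapped. Over SMI, the IgG IP was higher by a log2 fold change of 0.78 (SE 0.17, edgeR adjusted p = 0.0077). The MDH2 IP was lower than the IgG IP by a log2 fold change of -0.90 (SE 0.19, edgeR adjusted p = 0.018). That second call was lost without MDH2 IP replicate 1 (edgeR adjusted p = 0.083) and with the whole intron of the site left out (-0.61, edgeR adjusted p = 0.090).

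Between MDH2 IP and SMI, SMOC1 without its site had a log2 fold change of -0.20 (SE 0.19, edgeR adjusted p = 0.42). Under the TMM factors of the windows it was -0.64 (edgeR adjusted p = 0.021), where the median of all genes stood at -0.44. The exons of SMOC1 summed to 15.3 ± 4.5 CPM in the MDH2 IP, 7.17 ± 0.72 CPM in the SMI and 12.3 ± 4.8 CPM in the IgG IP, and its introns outside the site to 41.0 ± 6.6, 56.9 ± 9.3 and 96.3 ± 0.8 CPM (mean ± SD, n = 3). On this scale the MDH2 IP libraries were thus above the SMI libraries in exons and narrowly below all of them in introns. The highest MDH2 IP library had 45.4 CPM in introns and the lowest SMI library 46.2 CPM. No other scaling was computed for exons and introns apart. The difference between exons and introns was not tested.

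SYCP2L without its site had 351, 295 and 93 window counts in the MDH2 IP, 394, 560 and 202 in the SMI and 104, 95 and 20 in the IgG IP. Replicate 3 was the lowest of its group in each case. The levels were 30.1 ± 13.4, 42.0 ± 19.8 and 36.5 ± 22.3 CPM (mean ± SD, n = 3), with overlapping groups. The MDH2 IP over SMI had a log2 fold change of -0.49 (SE 0.43, edgeR adjusted p = 0.41). With the replicate number as a block, the value was -0.49 (SE 0.12, edgeR adjusted p = 0.00078). Under that block 5022 of all 17057 genes were called lower. The IgG IP over SMI gave -0.17 (SE 0.48, edgeR adjusted p = 0.82) and the MDH2 IP over the IgG IP -0.22 (SE 0.48, edgeR adjusted p = 0.78). The sign of both turned when single libraries were left out.

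TECTA without its site had 23, 18 and 0 window counts in the MDH2 IP, 9, 16 and 5 in the SMI and 13, 4 and 3 in the IgG IP. MDH2 IP replicate 3 thus had 738 counts in the peak window and none elsewhere in the gene. Between MDH2 IP and SMI the log2 fold change was 0.58 (SE 0.91, edgeR adjusted p = 0.65), and between MDH2 IP and IgG IP -0.91 (SE 0.93, edgeR adjusted p = 0.55). At these counts a difference outside the site was not detectable, and between IgG IP and SMI the gene did not pass the count filter. The comparisons share libraries, so their values are not independent of each other. A count in an IP depends on the amount of an RNA and on its recovery, which cannot be told apart here.

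**Figure D4:**
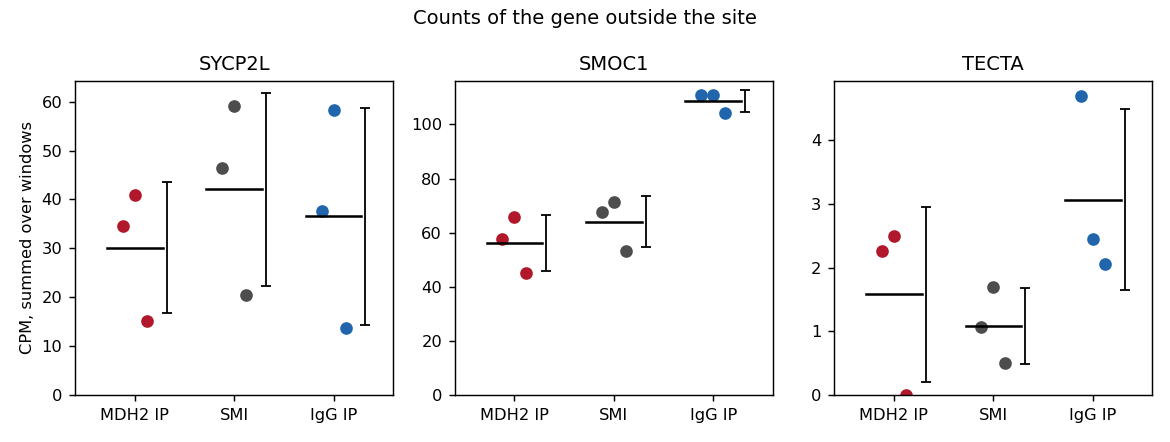
Counts of each gene outside its site, in CPM summed over windows and scaled by the gene sums, with 1 point per library, a line at the mean and a bar of 1 SD (n = 3). The IgG IP libraries of SMOC1 stand above all other libraries, and the groups overlap for SYCP2L. For TECTA the levels are below 5 CPM.

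The libraries carried the genes of liver cells. All 11 hepatocyte markers had counts, with APOB, the main protein of low-density lipoprotein, at 30565, 23776 and 15181 window counts in the MDH2 IP. The summed level of the hepatocyte markers was 6435 to 8220 CPM in the MDH2 IP, 6112 to 7820 CPM in the SMI and 3572 to 5788 CPM in the IgG IP. Of these markers, 2 were higher and none lower in the MDH2 IP over SMI, 1 higher and 2 lower in the IgG IP over SMI, and 8 higher and 1 lower in the MDH2 IP over the IgG IP, by the edgeR test. Of all genes, 16.4% were higher and 17.9% lower in the first comparison, 16.4% and 11.4% in the second, and 4.64% and 7.77% in the third. Under the TMM factors of the windows, APOA1 alone of the 8 remained higher in the MDH2 IP over the IgG IP (0.75, edgeR adjusted p = 0.017), while AFP, TF, TTR, APOA2, ALB, FGA and FGB lost the call (edgeR adjusted p from 0.097 to 0.56). TF also lost its call in the MDH2 IP over SMI there (edgeR adjusted p = 0.25). HNF4A, the gene lower in the MDH2 IP than in the IgG IP, lost its call with total counts (edgeR adjusted p = 0.068). The 5 germ cell markers summed to 11.4 to 15.2, 15 to 21.2 and 11.9 to 29.4 CPM, nearly all of it from ZP3, the 1 gene tested, which did not pass. SYCP1, SYCP3, DDX4 and DAZL had at most 8 counts in a library. Of the 5 inner ear markers, MYO7A, a myosin of hair cells that other epithelia also express, had 1404, 888 and 866 counts in the MDH2 IP, 648, 730 and 581 in the SMI and 391, 269 and 217 in the IgG IP. It was higher than in the SMI in the MDH2 IP (log2 fold change 0.89, SE 0.14, edgeR adjusted p = 0.0026) and in the IgG IP (1.12, SE 0.17, edgeR adjusted p = 0.0012). TECTB, OTOG and OTOA had at most 9 counts in a library, and STRC was not found under its name in the counts. The inner ear markers summed to 124 to 141 CPM in the MDH2 IP, 59.4 to 79.1 CPM in the SMI and 145 to 166 CPM in the IgG IP, and their part in the TECTA values was not tested.

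The relatives of the 3 genes, listed for their known roles, had few counts, and a shared change could be looked for in the SPARC family alone. None of the 8 synaptonemal complex genes passed the count filter in any comparison. SYCP2, a component of the lateral elements of the complex, had 13, 12 and 7 window counts in the MDH2 IP, 0, 8 and 9 in the SMI and 2, 8 and 0 in the IgG IP. Of the 7 tectorial membrane genes, 5 had counts, and COL11A2 and STRC were not found under their names. OTOGL alone was tested, with 50, 34 and 14 window counts in the MDH2 IP and 18, 44 and 37 in the SMI. It did not pass in any comparison.

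Of the 7 SPARC family genes, 6 were tested in the MDH2 IP over SMI, 1 rose and none fell, with a median log2 fold change of 0.10 against -0.01 for all genes. In that comparison 16.4% of all genes were higher, about the share of 1 in 6. In the IgG IP over SMI, 4 were tested, 1 rose and none fell (median 0.52 against -0.08), where 16.4% of all genes were higher. In the MDH2 IP over the IgG IP, 5 were tested and none passed (median -0.21 against 0.02). The gene that rose was SPOCK2, a secreted proteoglycan. It had 179, 167 and 75 window counts in the MDH2 IP, 59, 111 and 77 in the SMI and 57, 39 and 28 in the IgG IP. Its log2 fold change was 0.98 (SE 0.31, edgeR adjusted p = 0.036) in the MDH2 IP over SMI and 1.28 (SE 0.31, edgeR adjusted p = 0.012) in the IgG IP over SMI. The first call was lost under the TMM factors of the windows, at 0.55 (edgeR adjusted p = 0.14). SPOCK2 and SMOC1 without its site were thus both higher in the IgG IP than in the SMI. The other family genes tested there, SPOCK1, SPOCK3 and FSTL1, had log2 fold changes of 1.20, -0.19 and -0.16 and did not pass.

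Other intron windows had a pattern over the 9 libraries like those of the sites. Likeness was measured by Pearson's r of log2(CPM + 1) over the 9 libraries, among 1677 intron windows with at least 100 counts in all. These r values describe the libraries and share their depth and groups, and carry no test. Most like the SYCP2L site was a window of THEM7P (r = 0.991), with 274, 295 and 254 counts in the MDH2 IP, 7, 19 and 8 in the SMI and 156, 52 and 61 in the IgG IP. It was followed by windows of ALMS1 and SEPTIN10 (r = 0.986 and 0.982).

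Most like the SMOC1 site were windows of DLG2, COL22A1 and PCDH11X (r = 0.996, 0.994 and 0.992). The COL22A1 window, in a collagen gene, had 276, 198 and 260 counts in the MDH2 IP, 0, 1 and 0 in the SMI and 117, 34 and 26 in the IgG IP. Most like the TECTA site were windows of ENSG00000125695, SEPTIN10 and ENSG00000268981 (r = 0.996, 0.995 and 0.990). The SEPTIN10 window, in a gene of the septin cytoskeleton family, was named for both the SYCP2L and the TECTA site and had 159, 204 and 165 counts in the MDH2 IP, 1 in each SMI library and 77, 38 and 42 in the IgG IP. All of these windows were far weaker than the SYCP2L site. They were chosen for their likeness to sites high in both IPs and low in the SMI, so sharing that pattern follows from the choice.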

How the data were processed

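The authors appended molecular identifiers to read names, trimmed adapters with cutadapt, aligned reads to GRCh38 with STAR, removed PCR duplicates by the identifiers, and counted the base before each alignment start in sliding windows with htseq-clip on an earlier GENCODE release with added tRNAs. They deposited these counts per window, not normalized, and 0 columns were left unused. From their called binding regions the authors later screened out those that had no reads in the input. They also dropped single-peak sites that they described as aberrant, most of them intronic. The deposited windows hold the counts before that screen. The SMOC1 site, with 0 counts in each SMI library, meets the first of these criteria. The SYCP2L site had counts in every SMI library and the TECTA site in SMI replicate 3 alone. Whether the 3 sites were among the called regions, or were dropped as single peaks, was not examined. Of 34950 Ensembl identifiers, 33751 matched GENCODE v44, which gave the names. Windows and gene sums were analysed with edgeR 4.0.16 in R 4.3.3 (TMM, quasi-likelihood test, Benjamini-Hochberg, at least 10 counts in 3 libraries, only the groups compared), with DESeq2 1.42.0, other scalings, filters and left-out libraries as alternatives. Gene sums of the 3 genes left out the site. Sequences were read from GRCh38 with pysam 0.24.0, and plots were drawn with matplotlib 3.10.9 in Python 3.11.15.

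The 3 genes and the gene lists were chosen with earlier results of these data known. A site is the intron window with the highest mean MDH2 IP level together with the windows of that intron up to 2 numbers away. The text names these windows, 5 neighbours on each side, the 5 windows with the most counts outside, identifiers with equal counts, the 3 genes with the most alike intron window per site, and list genes that passed. TMM factors were computed on windows for site levels and on gene sums for the rest. Window factors for gene sums, and gene factors for sites, were alternatives chosen after seeing the data. The paper describes the replicate libraries as independent, but the labels give no word on separate cultures. The p-values therefore measure only the spread between these libraries. No replicate pair agreed within sampling noise (chi-square per degree of freedom at least 9.59). Deviations of same-numbered libraries from their group means correlated at 0.45 to 0.84 between MDH2 IP and SMI, 0.11 to 0.68 between IgG IP and SMI and 0.12 to 0.70 between the IPs over 5900 genes, a pairing found in the data and not stated in the labels. In simulated counts for the MDH2 IP over SMI, 87.0% of 200 genes raised 4-fold were recovered among 16585, with 15 false calls, and 96.5% of 200 windows among 43728, with 3 false calls. The simulation drew each gene or window independently, without overlap of windows or pairing of replicates. It raised only those with a mean of at least 10 counts, so it does not cover smaller differences or lower counts.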

Additional observations from a re-analysis of the deposited data

How the results depend on the processing

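With 50-nt windows at few counts, differences outside the sites are limited by depth, most of all in the IgG IP and for TECTA. With the replicate number as a block, the value for SYCP2L outside its site became -0.49 with an adjusted p under the threshold in the MDH2 IP over SMI, and the block changed no other call of the 3 genes. It raised the genes called higher and lower from 2799 and 3059 to 4658 and 5022 in the MDH2 IP over SMI, from 719 and 1204 to 2096 and 2236 in the MDH2 IP over the IgG IP, and those called lower from 1786 to 3054 in the IgG IP over SMI, where 3171 were called higher. Leaving out 1 library each, SYCP2L outside its site ranged from -0.64 to 0.20 in the IgG IP over SMI (positive without SMI replicate 2 or IgG IP replicate 3) and from -0.60 to 0.24 in the MDH2 IP over the IgG IP (positive without MDH2 IP replicate 3 or IgG IP replicate 2), and SMOC1 from -1.0 to -0.73 in the MDH2 IP over the IgG IP. SMOC1 outside its site missed the threshold there with the whole intron left out (-0.61) and passed it in the MDH2 IP over SMI under the TMM factors of the windows (-0.64). With 1 CPM in place of 0.1 CPM added, the log2 ratios over SMI fell to 6.45 and 6.24 at SMOC1 and to 6.01 and 6.57 at TECTA for the MDH2 IP and the IgG IP, from 9.75, 9.55, 8.04 and 8.61, since the SMI is at or near 0. The SMOC1 ratio of MDH2 IP over SMI was 10.18 with total counts and 10.10 with the factors of the gene sums, and the TECTA ratio of MDH2 IP over IgG IP was 0.21 and 0.0059. With the peak window alone, shares of a gene's counts at its site dropped to about the fraction that 1 of 2 or 3 equal windows holds. TECTA outside its site was not fitted without MDH2 IP replicate 1 or 2, SMI replicate 2 or IgG IP replicate 1, and DESeq2 gave it no adjusted p in the MDH2 IP over the IgG IP. The count of windows called outside the sites stayed at 0 in every setting, since none passed the count filter. The causes of these changes were otherwise not tested.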
